A study of Canis lupus familiaris with 4 samples.

Results

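Lymphatic vessels of the mammary gland are lined by an endothelium of its own kind, and 7 genes that mark it were followed here in canine mammary ductal carcinoma and in the adjacent non-tumor mammary tissue of the same dogs. The genes were LYVE1, PROX1, FLT4, PDPN, MMRN1, RELN and STAB2, taken by their symbols from a list of lymphatic endothelial markers. All 7 were measured, among 11277 genes in the count tables. Lymphatic endothelial cells arise from veins when the transcription factor PROX1 is switched on, and they grow and survive through the receptor FLT4 (VEGFR-3), which binds the growth factors VEGFC and VEGFD. In the mammary gland these vessels drain tissue fluid, immune cells and, in carcinoma, tumor cells toward the regional lymph nodes.

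The study sequenced total RNA of 4 libraries, 2 of adjacent non-tumor tissue (control, C1 and C2) and 2 of mammary ductal carcinoma (T1 and T2), from the mastectomies of 6 unspayed female dogs of different breeds, 5 to 14 years old and with early-stage disease. Each library was a pool of 3 dogs, with the same dogs behind C1 and T1 (pool 1) and the other dogs behind C2 and T2 (pool 2). An n of 2 therefore stands for pools, and single dogs cannot be told apart. No dog received a treatment named in the sources used here, and the control tissue came from the same mastectomies as the tumors. Pool 1 was the deeper one, with total counts of 32352002 (C1) and 35496260 (T1) against 4027367 (C2) and 3236218 (T2), and pool 2 set the precision of genes with few counts. The epithelial adhesion genes of mammary tissue, EPCAM and CDH1, were at 147 to 252 CPM and 514 to 670 CPM over the 4 libraries. Neither was called different by the rule given below, while 4 of the 10 measured luminal epithelial markers were lower in carcinoma. CPM, the usual depth-scaled count, was taken after scaling by the TMM factors of edgeR.

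Of the 7 lymphatic endothelial genes, 5 fell in carcinoma (MMRN1, LYVE1, PROX1, PDPN and RELN), none rose, and FLT4 and STAB2 did not pass the test. A gene was called at an adjusted p under 0.05 (edgeR's quasi-likelihood test, Benjamini-Hochberg over all 11277 genes tested) together with a log2 fold change of 1 or more in size. SE is the standard error of a log2 fold change. Over all genes, 5.24% were called lower and 4.62% higher by this rule. None of the 7 was higher at an unadjusted p under 0.05 (edgeR). No share over all genes was taken for that cut, so counts at an unadjusted p, here and below, are a description only. DESeq2 called the same 5 genes lower (5.61% of all genes) and 0 higher (5.08% of all genes). The median log2 fold change of the 7 genes was −2.19, against 0.03 over all genes tested. In bulk tissue, fewer lymphatic cells and less RNA per lymphatic cell cannot be told apart. The smallest p of an exact permutation test (two-sided) over 2 libraries a group is 0.333, so each call rests on the spread estimated across genes.

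PROX1 encodes the homeobox transcription factor that sets and keeps lymphatic endothelial identity. Its level was 46.1 CPM in C1 and 40.1 in C2, and 6.27 CPM in T1 and 4.46 in T2. Both carcinoma libraries lay far below both controls, and the controls differed little from each other. The means were 43.1 ± 4.21 CPM (SD, n = 2) for control and 5.36 ± 1.28 CPM for carcinoma. This is a log2 fold change of −2.94 (SE 0.25, adjusted p = 0.00371). The value for T2 rested on 15 counts. PROX1 is also transcribed in striated muscle, whose 14 measured marker genes had a summed level of 2107 CPM in C1 and 3236 in C2, and of 44.4 CPM in T1 and 74.6 in T2. Of these 14, 13 were lower in carcinoma, among them MYL2, TNNT1, MB and TNNT3, and MYL3 had no count in T1 or T2. Most of the control sum came from 1 gene, TTN, at 1472 CPM in C1 and 2462 in C2. The part of muscle RNA in the PROX1 result was not tested.

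FLT4 encodes VEGFR-3, the tyrosine kinase receptor of lymphatic endothelium, which activated blood vessels also carry. FLT4 stood at 45.1 CPM (C1) and 63.5 CPM (C2) in control and at 28.8 CPM (T1) and 54.7 CPM (T2) in carcinoma. The groups overlapped, because T2 was above C1, and pool 2 was above pool 1 in both tissues. Its log2 fold change was −0.41 (SE 0.36, adjusted p = 0.508), from 54.3 ± 13 CPM (SD, n = 2) to 41.8 ± 18.3 CPM in carcinoma. With the pool as a replicate block, which sets each carcinoma pool against the control of the same dogs, it was −0.51 (SE 0.09, adjusted p = 9.79e-08), past the threshold on p but not the one on fold change. That fit left 1 residual degree of freedom and had a common dispersion of 0.00216, against 0.0508 without the block, so its SE and p rest on a small estimated spread.

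LYVE1 and STAB2 encode receptors for hyaluronan, a matrix polysaccharide that lymph carries away from tissues. LYVE1 had 85.0 CPM in C1 and 57.5 in C2, against 10.2 CPM in T1 and 7.14 in T2. The highest carcinoma value was thus well under the lowest control, although C1 exceeded C2. The log2 fold change was −2.98 (SE 0.29, adjusted p = 0.00496), from a mean of 71.2 ± 19.5 CPM (SD, n = 2) to 8.68 ± 2.18 CPM. In T2 LYVE1 had 24 counts.

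STAB2 was the gene with the fewest counts of the 7, with 146 and 19 in the controls (C1, C2) and 70 and 13 in the carcinomas (T1, T2). In CPM these were 4.94, 4.40, 2.00 and 3.87, and T2 lay close under C2. Control had a mean of 4.67 ± 0.382 CPM (SD, n = 2) and carcinoma one of 2.93 ± 1.32 CPM, or a log2 fold change of −0.85 (SE 0.42, adjusted p = 0.262). With the replicate block STAB2 was called lower, at −1.09 (SE 0.25, adjusted p = 4.53e-05), and 6 of the 7 genes then passed, where 6.83% of all genes were called lower and 7.09% higher. As for FLT4, the block left 1 residual degree of freedom. Without T1 the log2 fold change of STAB2 was −0.33 and without T2 −1.23.

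Both LYVE1 and STAB1, a relative of STAB2, are known from tissue macrophages too, so the macrophage markers were read beside them. Of 12 measured macrophage genes 2 were lower in carcinoma, none was higher (edgeR, 0 at an unadjusted p under 0.05 and 0 by DESeq2), and their median log2 fold change was −0.41. The lower ones were F13A1, a coagulation factor subunit of macrophages, at −1.92 (SE 0.16, adjusted p = 0.00339), and the mannose receptor gene MRC1, which lymphatic endothelium also transcribes, at −1.03 (SE 0.20, adjusted p = 0.0300). Without C1, and likewise without T2, only 1 of them was called. CD163 had a log2 fold change of −0.65 and TIMD4 one of −1.04, and neither passed in edgeR, while DESeq2 called 3 macrophage genes lower, TIMD4 among them. The summed macrophage level was 733 and 783 CPM in control and 436 and 492 CPM in carcinoma, no marker was at 0, and the part of macrophages in the LYVE1 result was not tested.

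PDPN encodes podoplanin, a mucin-like membrane glycoprotein by which lymphatic vessels are stained in tissue sections, and which keeps blood and lymph apart by binding a platelet receptor. PDPN was at 160 CPM in C1 and 164 in C2, and at 37.2 CPM in T1 and 33.0 in T2. Within each tissue the pools nearly coincided, and the tissues were clearly apart. This gave a log2 fold change of −2.19 (SE 0.12, adjusted p = 0.00184), from 162 ± 2.60 CPM (SD, n = 2) to 35.1 ± 2.96 CPM.

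Podoplanin is also made by stromal fibroblasts and by myoepithelial cells. Of 11 measured fibroblast markers 6 were lower in carcinoma and none was higher (edgeR, 0 at an unadjusted p under 0.05 and 0 by DESeq2). With the replicate block 9 were lower, and by DESeq2 8. The smallest adjusted p-values were those of the proteoglycan gene DCN, at a log2 fold change of −3.13, the collagen gene COL3A1 (−1.30), the receptor gene PDGFRB (−1.86) and DPT (−1.66). The summed fibroblast level was 7641 and 8603 CPM in control and 2860 and 3730 CPM in carcinoma. The 7 measured basal and myoepithelial markers were summed at 1325 and 1346 CPM in control and 1318 and 1561 CPM in carcinoma. None of them was called in either direction (edgeR, with 3 higher and 3 lower at an unadjusted p under 0.05), whereas DESeq2 called 2 higher. ITGA6, MYH11, TP63 and OXTR had log2 fold changes of −0.63, 0.66, −0.42 and 1.66. The part of either cell type in the PDPN result was not tested.

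MMRN1 encodes multimerin 1, a large secreted protein of endothelial cells and platelets, and among the 7 genes it had the lowest log2 fold change. MMRN1 was at 545 CPM in C1 and 376 in C2, and fell to 34.7 CPM in T1 and 19.3 in T2. The spread between the pools was small beside the distance between the tissues. The mean dropped from 460 ± 120 CPM (SD, n = 2) to 27.0 ± 10.8 CPM, with a log2 fold change of −4.04 (SE 0.35, adjusted p = 0.00381) and rank 66 from the lowest of all 11277 genes. Platelet markers were measured only in 2 genes that other cells transcribe as well, so they say little of platelets. THBS1, the thrombospondin 1 gene, was higher in carcinoma at 1.68 (SE 0.12, adjusted p = 0.00261), and TBXAS1 had a log2 fold change of −0.03.

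RELN encodes reelin, an extracellular glycoprotein known from neuronal layering, which lymphatic endothelium also secretes. RELN stood at 266 CPM in C1 and 252 in C2, and at 92.1 CPM in T1 and 79.4 in T2. The tissues did not overlap, and among the 5 genes that fell its change was the smallest. From 259 ± 10.3 CPM (SD, n = 2) it went to 85.7 ± 8.96 CPM, a log2 fold change of −1.59 (SE 0.13, adjusted p = 0.00335).

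**Figure D1:**
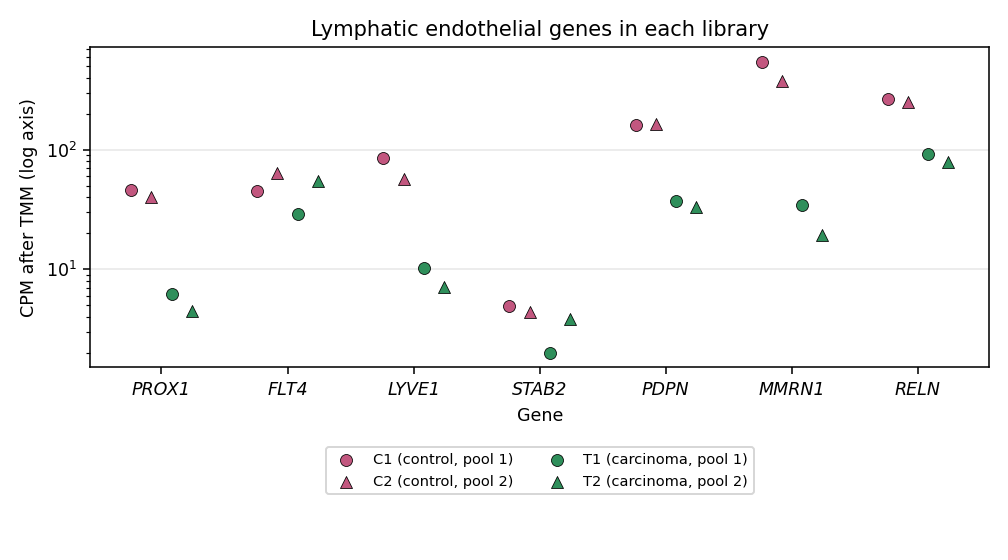
CPM after TMM (log axis) of the 7 lymphatic endothelial genes, with 1 symbol per library, pink for control and green for carcinoma (pool 1 as circles, pool 2 as triangles). MMRN1, at 545 and 376 CPM in control, lies at 34.7 and 19.3 CPM in carcinoma, while the FLT4 symbols of the tissues are mixed.

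Within each pool of dogs, the measured level in carcinoma was under that in control for each of the 7 genes, with a counting interval that included no difference for FLT4 and STAB2 in pool 2. These values compare 1 library with 1 library, so the 95% intervals (exact, from the counts) cover counting error only. No share over all genes was taken for a lower level in both pools, so that count is a description only. MMRN1 was 15.7-fold higher in control in pool 1 (interval 14.8 to 16.7) and 19.4-fold in pool 2 (15.2 to 25.3). For LYVE1 the ratios were 8.32 (7.44 to 9.32) and 8.05 (5.29 to 12.8), and for PROX1 7.35 (6.37 to 8.52) and 8.99 (5.30 to 16.4). The intervals of the pools overlapped for these 3 genes, which is no test of a difference between the sets of dogs.

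PDPN had control-to-carcinoma ratios of 4.30 (4.04 to 4.58) and 4.96 (4.05 to 6.11), and RELN of 2.89 (2.77 to 3.01) and 3.17 (2.77 to 3.63). FLT4 was at 1.56 (1.44 to 1.70) in pool 1 and 1.16 (0.959 to 1.41) in pool 2, where the interval includes 1, and by counting error alone the intervals of the pools did not overlap. STAB2 was at 2.47 (1.84 to 3.33) in pool 1 and at 1.14 (0.534 to 2.51) in pool 2, with 19 and 13 counts behind the latter. Both carcinoma libraries were below both controls for 6 of the 7 genes (all but FLT4), as they were for 28% of all genes, and above them for none, against 29.6% of all genes.

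**Figure D2:**
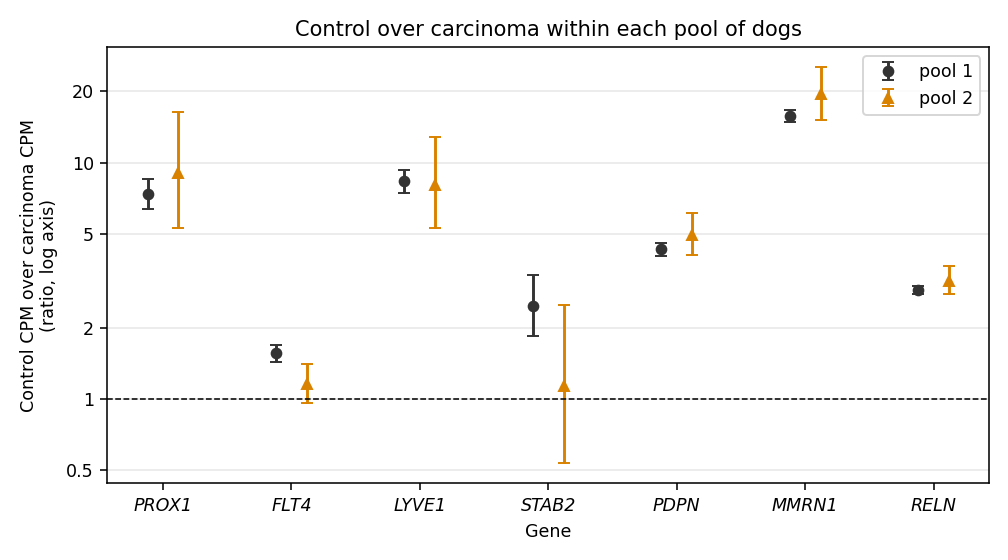
Ratio of control CPM to carcinoma CPM (log axis) for each lymphatic endothelial gene in pool 1 (black circles, T1 and C1) and pool 2 (orange triangles, T2 and C2), with bars for the exact 95% counting interval and a dashed line at a ratio of 1. Only FLT4 and STAB2 have an interval that reaches 1, both in pool 2.

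Part of the blood and general endothelial markers was also lower in carcinoma, which raised the question of how the lymphatic genes moved against them. Of 16 measured markers of blood and general endothelium 7 were lower, none was higher (edgeR, 0 at an unadjusted p under 0.05 and 0 by DESeq2) and 9 did not pass, with a median log2 fold change of −0.92. The junction gene PECAM1 had a log2 fold change of −1.72 (SE 0.15, adjusted p = 0.00374), the cadherin gene CDH5 one of −1.51 (adjusted p = 0.00906), CD34 one of −1.30 (adjusted p = 0.0102) and the sialomucin gene EMCN one of −1.36 (adjusted p = 0.0151). KDR, NOS3, FLT1 and PLVAP, named after their values were seen, had log2 fold changes above 0, from 0.03 for KDR to 0.48 for PLVAP, and none of these passed. Lymphatic endothelium transcribes PECAM1 and CDH5 as well, so the list is not free of lymphatic RNA. The summed level of the list was 1007 and 994 CPM in control and 551 and 546 CPM in carcinoma.

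Per 1000 counts of these endothelial markers, a measure that does not use the library scaling, PROX1 had 45.7 counts in C1 and 40.3 in C2, against 11.4 in T1 and 8.17 in T2. LYVE1 had 84.4 and 57.8 in control and 18.5 and 13.1 in carcinoma. MMRN1 went from 541 and 378 to 62.8 and 35.4. PDPN had 159 and 165 in control and 67.5 and 60.4 in carcinoma, and RELN 264 and 253 against 167 and 145. For these 5 genes the tissues stayed apart on this measure also. No share over all genes was taken on it, so this is a description only. The sum holds markers that moved by different amounts, and for RELN the reading depends on which are used. Its log2 fold change in CPM, −1.59, lay between those of CDH5 (−1.51) and PECAM1 (−1.72). FLT4, in contrast, had 44.8 and 63.9 in control and 52.3 and 100 in carcinoma, and STAB2 had 4.91 and 4.43 against 3.63 and 7.08, with overlap in both. Within the pools, with 1 library a side, FLT4 had log2 ratios of carcinoma to control of 0.22 (pool 1) and 0.65 (pool 2) on this measure. Those of STAB2 were −0.43 and 0.68.

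When the libraries were scaled to the summed endothelial markers and the edgeR test was repeated over all genes, a setting chosen after the data had been seen, 4 of the 7 genes were called lower, where 2.58% of all genes were lower and 37.1% higher. This scaling takes the endothelial sum as known without error, and over all genes it moved the median to 0.90. MMRN1 was at −3.17 (SE 0.34, adjusted p = 0.00265), LYVE1 at −2.12 (SE 0.29, adjusted p = 0.00459), PROX1 at −2.08 (SE 0.25, adjusted p = 0.00337) and PDPN at −1.33 (SE 0.11, adjusted p = 0.00194). RELN was at −0.72 (SE 0.12, adjusted p = 0.00654), short of the threshold on fold change. FLT4 turned to 0.46 (SE 0.37, adjusted p = 0.293) and STAB2 to 0.02 (SE 0.43, adjusted p = 0.973), neither of them called.

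**Figure D3:**
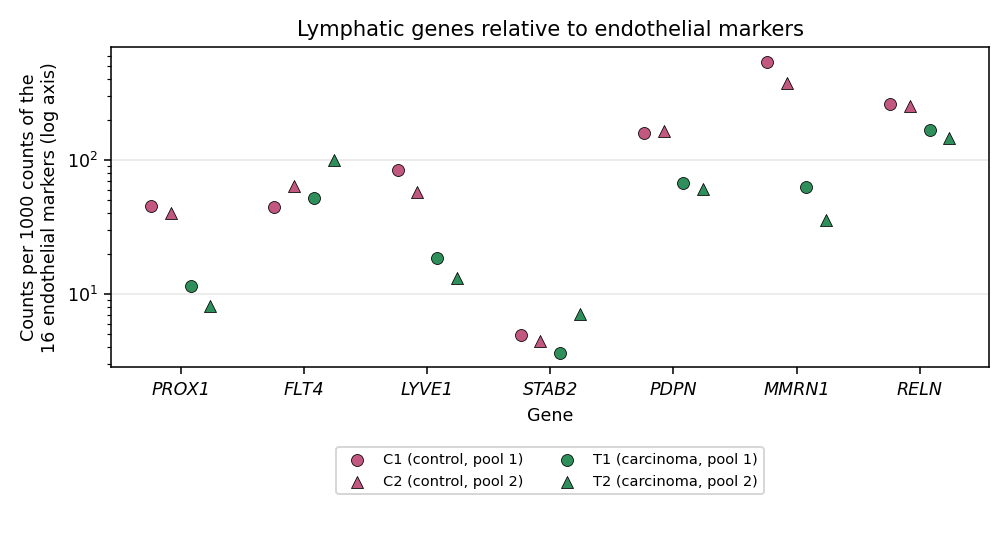
Counts of each lymphatic endothelial gene per 1000 counts summed over 16 blood and general endothelial markers (log axis), with 1 symbol per library (pink for control, green for carcinoma, pool 1 as circles, pool 2 as triangles). PROX1, LYVE1, PDPN, MMRN1 and RELN stay lower in carcinoma, and FLT4 and STAB2 overlap between the tissues.

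Of the ligand genes of FLT4, that of VEGFD fell in carcinoma and that of VEGFC did not pass. FIGF, the symbol the tables use for VEGFD, was at 40.0 CPM in C1 and 32.7 in C2, and at 2.46 CPM in T1 and 1.19 in T2, the last from 4 counts. It was lower in carcinoma, with a log2 fold change of −4.11 (SE 0.35, adjusted p = 0.00374), and both carcinoma libraries were far under both controls. VEGFC stood at 102 and 82.3 CPM in the controls and at 158 and 140 CPM in the carcinomas. Its carcinoma values were above both controls, at a log2 fold change of 0.69 (SE 0.15, adjusted p = 0.0460) that did not reach the threshold on fold change.

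CCBE1 encodes a secreted matrix protein needed for the cleavage that activates VEGFC. CCBE1 was at 121 CPM in C1 and 104 in C2, and at 9.01 CPM in T1 and 7.73 in T2. With a log2 fold change of −3.71 (SE 0.17, adjusted p = 0.00177) it was lower in carcinoma, and its pools lay close together within each tissue.

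In the whole list of lymphatic growth factor signaling, 16 of 21 genes were measured, and 4 were lower, 12 did not pass and none was higher (edgeR, with 7 lower and 2 higher at an unadjusted p under 0.05, the 2 being VEGFC and PTPN14, and 0 higher by DESeq2). Besides FIGF and CCBE1, the genes called lower were HGF, the hepatocyte growth factor gene, at −2.67 (SE 0.26, adjusted p = 0.00496), and CALCRL, the adrenomedullin receptor gene, at −1.35 (SE 0.22, adjusted p = 0.0202). CALCRL was named after its values were seen. PTPN14, which encodes a phosphatase that restrains FLT4, was at 0.94 (SE 0.10, adjusted p = 0.00651), just under the threshold on fold change. SVEP1, TEK and ITGA9, named after their values were seen, were at −0.85, −0.71 and −0.56. They too were past the threshold on adjusted p but not the one on fold change. The median of the list was −0.28.

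Among lymphatic transcription factors and valve and junction genes, 10 of 22 were measured, and 2 were higher in carcinoma, 8 did not pass and none was lower (edgeR, with 1 lower at an unadjusted p under 0.05 and 0 by DESeq2). SEMA3A, whose semaphorin acts in lymphatic valve formation, was at 147 and 127 CPM in control and 455 and 393 CPM in carcinoma, with a log2 fold change of 1.63 (SE 0.14, adjusted p = 0.00391). GJA1, the gap junction gene of connexin 43, was at 39.5 and 36.2 CPM against 90.1 and 93.1 CPM, a log2 fold change of 1.27 (SE 0.12, adjusted p = 0.00483). Epithelium and stroma transcribe both genes as well. NRP1 had a log2 fold change of −0.44 and the polarity gene CELSR1 one of 1.12, neither of them called. NR2F2, whose product acts with PROX1 and which was named after its values were seen, was at 36.3 and 31.1 CPM in control and 30.1 and 33.9 CPM in carcinoma (log2 fold change −0.09, SE 0.18, adjusted p = 0.789), with overlapping tissues. The list had a median of 0.26.

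Further markers of lymphatic endothelium had a median log2 fold change of −2.21. Of 16 genes 8 were measured, 5 were lower in carcinoma, 3 did not pass and none was higher (edgeR, 0 at an unadjusted p under 0.05 and 0 by DESeq2). PKHD1L1, which encodes a large fibrocystin-like membrane protein, was at 215 and 190 CPM in control and 19.4 and 14.6 CPM in carcinoma, with a log2 fold change of −3.53 (SE 0.18, adjusted p = 0.00182). CD36, the fatty acid receptor gene, which adipocytes and macrophages share, was at −2.37 (SE 0.15, adjusted p = 0.00209). The guidance gene SEMA3D was at −2.61 (SE 0.27, adjusted p = 0.00567), and TFPI, which encodes the inhibitor of tissue factor, was at −2.71 (SE 0.36, adjusted p = 0.0106). These 4 genes were named for their small adjusted p-values. Of all 8 measured genes of the list, 7 had both carcinoma libraries below both controls, as did 28% of all genes.

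**Figure D4:**
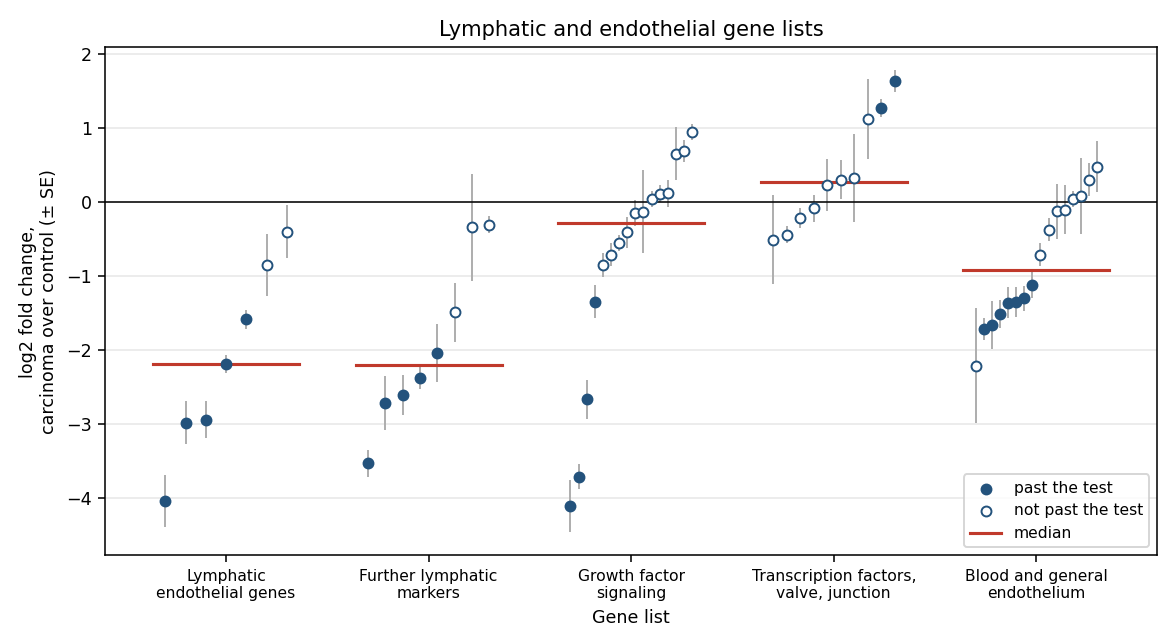
Log2 fold change of carcinoma over control (± standard error) for each measured gene of 5 lists, filled where the gene passed the test and open where it did not, with a red line at the median of each list. The medians are −2.19 for the 7 lymphatic endothelial genes, −2.21 for further lymphatic markers, −0.28 for growth factor signaling, 0.26 for transcription factors, valve and junction genes, and −0.92 for blood and general endothelium.

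Lymphocytes fill the lymph nodes to which these vessels lead, and the endothelium of lymph node sinuses carries LYVE1 and STAB2. Of 6 measured T and B cell and lymph node markers 2 were lower in carcinoma, among them CD3E at −1.73 (adjusted p = 0.0276), and without C1, as without T2, 0 were called (edgeR, 6 lower at an unadjusted p under 0.05 with all 4 libraries, 2 by DESeq2). PTPRC and CD3G did not pass, at −0.90 and −1.60. With the replicate block 4 of the 6 were lower. The summed level was 299 and 234 CPM in control and 149 and 122 CPM in carcinoma, with no marker at 0, and the part of lymph node tissue in the results was not tested. Of 7 measured adipocyte markers 1 was lower, CD36, and 1 further gene, PLIN4, was higher with the replicate block and without C2 (log2 fold change 1.26 and adjusted p = 0.192 with all 4 libraries and no block). PPARG was at −0.84 and LPL at −0.25. The list was summed at 253 and 262 CPM in control and 128 and 159 CPM in carcinoma. Its 6 genes other than CD36, which is also on the list of lymphatic markers, were summed at 103 and 126 CPM in control and 97.6 and 135 CPM in carcinoma, with overlap. Only 7 of the 15 listed adipocyte genes were measured. ADIPOQ, LEP, PLIN1 and FABP4 were among those absent, so the sums say little of adipocyte content. Of 10 measured luminal markers 4 were lower (ESR1, ELF5, PGR and ERBB3, from −2.48 for ELF5 to −1.07 for ERBB3), and their summed level was 1897 and 1799 CPM in control and 1326 and 1403 CPM in carcinoma.

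Over the 4 libraries, PDPN lay nearest to the mean profile of the 7 genes, at a distance of 0.158, and MMRN1, at 2.06, and FLT4, at 1.91, lay farthest from it. The distance is Euclidean between log2 CPM values centered on each gene's own mean. Of the genes outside the group, those with the most similar profile were CCND2, the cyclin D2 gene, at 0.0652, LRRIQ1 at 0.118, CNKSR2 at 0.154, the chemokine gene CCL5 at 0.181 and APOL5 at 0.185. CCND2 was at 42.1 and 38.5 CPM in control and 8.84 and 8.33 CPM in carcinoma. With 4 libraries in 2 tissues, such a distance reads little more than the size of the difference between the tissues.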

How the data were processed

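Total RNA of pooled mammary tissue was sequenced in 4 libraries (TruSeq Stranded Total RNA). The deposited tables hold whole-number counts per gene without normalization. Tools named by the submitters' processing notes are FastQC, STAR, featureCounts and DESeq2, and those named by the paper are TopHat2 and HTSeq. The paper gives HTSeq's default settings, which include a strand option. Not given in the sources used here are the build of the genome, the strand setting of featureCounts and the versions of the mapping and counting tools, so no coordinates are printed and reads of overlapping antisense genes may not be told apart. The tables also give a length per gene near the genomic span with introns (median ratio to the RefSeq span 0.970). Levels were therefore not compared between genes.

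Counts were analysed with R 4.3.3 and edgeR 4.0.16 (filterByExpr by group, which kept all 11277 genes, TMM, quasi-likelihood test, prior count of 2 for log2 CPM) and with DESeq2 1.42.0, and plots were made with matplotlib 3.10.9. The main comparison had no block. SEs were taken as the size of the log2 fold change over the square root of F. The paper pairs same-numbered pools by dog. Across genes, the deviations of same-numbered pools from the mean of each tissue had a correlation of 0.782. Same-numbered pools were also alike in depth, so this value cannot tell shared dogs from shared depth and does not check the pairing. The replicate block took the common dispersion from 0.0508 to 0.00216, at 1 residual degree of freedom. The code was tested on simulated data.

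The genes, lists and tests were chosen with earlier results of these data known. Named were all 7 lymphatic genes, VEGFC and VEGFD, up to 4 genes of each other list with the smallest adjusted p, and the 5 genes nearest in profile, with exceptions marked. EPCAM, CDH1, MYL3 and TTN were also named outside this rule. Alternatives were RLE size factors, library totals, no filter, at least 10 counts in every library, the replicate block, DESeq2 and leaving out each library. A search of promoter motifs was planned and not run.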

Additional observations from a re-analysis of the deposited data

How the results depend on the processing

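The 5 calls among the lymphatic genes kept their side of the threshold under all 10 alternatives fixed in the design, and 69 of 70 values of the 7 genes did. The exception was STAB2, called at −1.09 with the replicate block. The filter of the main fit removed no gene, so the alternative without a filter repeated that fit and could not differ from it. Over these alternatives the log2 fold change ran from −4.62 to −3.73 for MMRN1, from −3.37 to −2.73 for LYVE1, from −3.32 to −2.78 for PROX1, from −2.34 to −2.12 for PDPN and from −1.75 to −1.49 for RELN, with adjusted p-values of at most 0.0118. FLT4 ran from −0.90 (without T2) to −0.02 (without T1). With libraries scaled to the endothelial list, chosen after the data were seen, RELN (−0.72) missed the threshold on fold change and FLT4 (0.46) and STAB2 (0.016) changed sign. Over all genes, 800 were called higher with the block against 521, and 1570 against 1112 in both directions, with 342 to 509 higher when single libraries were left out (342 without C1). For the other lists, only moves that were large relative to the count of called genes follow, and smaller ones are left out. Library totals alone left 1 macrophage, 1 lymphocyte and 3 fibroblast genes lower. An example of a smaller move is that of the blood and general endothelial markers, from 7 lower to 6 with library totals. The minimum of 10 counts left 1 lymphocyte and 3 striated muscle genes lower, and it removes genes near 0 in carcinoma by its construction. The block gave 4 lymphocyte genes lower, and 1 adipocyte and 2 basal genes higher, and DESeq2 gave 2 basal genes higher. Leaving out single libraries gave 1 to 2 macrophage genes (1 without C1 or T2) and 0 to 2 lymphocyte genes lower (0 without C1 or T2), 0 to 1 adipocyte genes higher (1 without C2), and 0 to 2 basal genes higher (1 without C2, 2 without T1). Except where stated, the cause was not tested. A gene with 3 counts stands at 0.102 CPM in C1 and 0.892 CPM in T2, which limits STAB2 and FIGF in pool 2.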
